A study of Homo sapiens with 6 samples.

Results

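The 7 genes described here govern how a cell handles vitamin D and thyroid hormone: CYP24A1, CYP27B1, CYP2R1 and VDR on the vitamin D side, and DIO2, THRA and THRB on the thyroid hormone side. They were picked out of 58336 genes by name, because CYP24A1 and DIO2 were among the genes whose RNA was lowest, relative to control, after knockdown of SMARCA4. The values that led to this choice come from the same comparison as all values below, so the differences of the 7 genes between the groups are given as descriptions without a test. CYP24A1 stood at 9.39 ± 0.536 CPM (counts scaled to the same total in each library) in siBRG1 cells and 180.3 ± 8.90 CPM in control cells (SD, n = 3 each), and DIO2 at 1.70 ± 0.317 CPM in siBRG1 cells and 31.6 ± 2.98 CPM in control cells. The genes that make active vitamin D and the receptors for both hormones did not share this pattern: CYP2R1 and THRA were higher in every siBRG1 library, and the libraries of the groups overlapped for VDR, which had the higher mean in siBRG1, and for CYP27B1 and THRB.

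Vitamin D becomes a hormone by hydroxylation in sequence, the first step carried out mainly by CYP2R1 in the liver and the next by CYP27B1, best known from the kidney. CYP24A1 adds a further hydroxyl group that starts the breakdown of the hormone and of its precursor, and its gene is a classical target of the vitamin D receptor VDR, a nuclear receptor that binds DNA with a retinoid X receptor (RXR) as partner. Thyroid hormone follows a similar logic. DIO2 is a selenoenzyme that converts the prohormone thyroxine into the active triiodothyronine inside the cell, and THRA and THRB encode the nuclear receptors that bind it. Local activation and breakdown let a tissue set its own hormone level, and vitamin D metabolism has been described in endometrium and in endometriotic tissue.

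RNA was sequenced from 12Z cells, an immortalised human epithelial line derived from endometriosis, transfected with 50 nM of an siRNA against SMARCA4 (siBRG1, 3 libraries) or of a non-targeting siRNA (control, 3 libraries). Its protein BRG1 is a motor subunit of SWI/SNF complexes, which move nucleosomes. Per the labels, all cells grew in medium with 10% serum, received fresh medium at 24 h and medium with 0.5% serum at 48 h, and were harvested at 72 h. The extraction text also speaks of a drug or vehicle, but no label of a sample names a drug. All 3 control libraries are marked as reanalysed from an earlier deposit and no siBRG1 library is, so group and batch cannot be told apart for any difference below. Whether libraries of a group came from separate cultures is not stated, and the p-values therefore reflect a spread between libraries that may be technical.

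SMARCA4 itself stood at 60.4, 78.8 and 50.5 CPM in the siBRG1 libraries and at 244, 266 and 262 CPM in the control libraries, and fell by 2.03 on the log2 scale (SE 0.161, adjusted p = 0.000267). The siBRG1 libraries held 12391161 to 13369692 counts in genes and the control libraries 40228678 to 49720320, so that 3 counts stood for 0.224 to 0.242 CPM in siBRG1 and 0.0603 to 0.0746 CPM in control. The groups also differed in make-up: replication histone genes took 0.0161 to 0.0186% of gene counts in siBRG1 and 1.04 to 1.09% in control, mitochondrial ribosomal RNA 1.12 to 1.18% in siBRG1 and 0.00335% or less in control, and reads mapping to several places 18.5 to 21.5% of all reads in siBRG1 and 9.57 to 10% in control. The part of these differences in the results below was not tested. Across all 15830 genes that passed the filter on low counts, 72.6% passed an adjusted p of 0.05 (36.1% with higher and 36.5% with lower RNA in siBRG1), and the median log2 fold change was -0.01. All 7 genes passed that filter, and 2 of them passed this threshold with lower values (CYP24A1 and DIO2), 3 with higher values (CYP2R1, VDR and THRA) and 2 did not pass it (CYP27B1 and THRB). Since the genes were chosen on this contrast, nothing is read from that count. In bulk RNA, fewer cells that express a gene and less RNA per cell cannot be told apart.

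The sequences that make these genes what they are show how the 7 fall into 3 protein families. The 3 hydroxylases are cytochromes P450, and each carries the short signature that holds the haem iron through a cysteine. Below, the coding sequence of GENCODE 29 is given 5′ to 3′ with the codon of that cysteine in capitals.
CYP24A1: tttggcgttggaaaaagaatgTGCattggt
CYP27B1: tttggctttggcaagcgcagcTGTatgggg
CYP2R1: ttttccctaggaagaagacatTGTcttgga

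VDR, THRA and THRB belong to the nuclear receptor superfamily, and the stretch of the first zinc finger that reads the DNA half-site is nearly the same in all 3. Capitals mark the bases at which the 3 genes differ. THRA and THRB shared 22 of these 24 bases, while VDR shared 21 with each of them. The stretch was located with a pattern that let bases vary only at the last position of a codon. The likeness was thus largely set by the search, and these counts do not measure how related the genes are.
VDR: tgtgaAggctgcaaAggCttcttC
THRA: tgtgaGggctgcaaGggCttcttT
THRB: tgtgaAggctgcaaGggTttcttT

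DIO2 is told apart by the code for selenocysteine, a TGA codon that is read as an amino acid in place of a stop. Its principal coding sequence of 273 codons held 2 such codons inside the reading frame, at codons 133 and 266, and codon 133 is the selenocysteine of the active site. That codon is shown in capitals.
DIO2: ggctcagccactTGAcctcctttcacg

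CYP24A1 (ENSG00000019186.9, chromosome 20, 54153449 to 54173973 on the minus strand of GRCh38), the enzyme that breaks vitamin D down, had 9.75, 8.77 and 9.64 CPM in the siBRG1 libraries and 170, 184 and 186 CPM in the control libraries. Every siBRG1 library lay far below every control library, and the libraries of each group lay close together. The difference came to -4.26 on the log2 scale (SE 0.0676), which is 19.2-fold higher RNA in control. It rested on 134, 112 and 123 reads in siBRG1 and on 8271, 7241 and 7506 reads in control, so the low level in siBRG1 was well above the counting floor. Reads on the opposite strand of the gene were few, 2, 0 and 5 in the siBRG1 libraries and 32, 27 and 22 in the control libraries.

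CYP27B1 (ENSG00000111012.9, chromosome 12, 57762334 to 57768986, minus strand), the enzyme that makes the active hormone, had 3.06, 3.21 and 1.25 CPM in siBRG1 and 3.003, 2.70 and 3.06 CPM in control. Replicates 1 and 2 of siBRG1 lay at or just above the control libraries and replicate 3 lay below them, so the groups overlapped. With 16 reads, replicate 3 had a 95% counting interval of 0.717 to 2.04 CPM, against 2.20 to 4.13 CPM for replicate 1. The log2 fold change was -0.22 (SE 0.236), and without that library it was 0.10. CYP27B1 shares 107 exon bases with METTL1, a transfer RNA methyltransferase gene on the same strand, where reads cannot be assigned to either gene. METTL1 stood at 13.8 ± 1.35 CPM in siBRG1 and 15.7 ± 1.31 CPM in control (SD, n = 3 each; log2 fold change -0.19, adjusted p = 0.0941), and passed the threshold with lower values under 6 of 15 other settings.

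CYP2R1 (ENSG00000186104.10, chromosome 11, 14877440 to 14892252, minus strand), which carries out the first hydroxylation, had 4.59, 2.74 and 4.15 CPM in siBRG1 and 1.48, 1.71 and 1.57 CPM in control. The lowest siBRG1 library lay above the highest control library, although the siBRG1 libraries spread more widely. The log2 fold change was 1.28 (SE 0.223), a 2.42-fold higher mean in siBRG1. The reads behind it were 63, 35 and 53 in siBRG1 and 72, 67 and 63 in control.

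VDR (ENSG00000111424.10, chromosome 12, 47841537 to 47943048, minus strand), the receptor through which active vitamin D acts, had 6.11, 4.46 and 8.23 CPM in siBRG1 and 4.71, 4.23 and 4.99 CPM in control. Replicates 1 and 3 of siBRG1 exceeded all control libraries and replicate 2 fell among them, so the groups overlapped. The log2 fold change of 0.43 (SE 0.169) depended on that spread: with 1 library left out at a time it ran between 0.19 and 0.62, the lowest value being the one without siBRG1 replicate 3. No siBRG1 library lay below the lowest control library for VDR. Any part of VDR in the level of CYP24A1 was not tested.

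**Figure D1:**
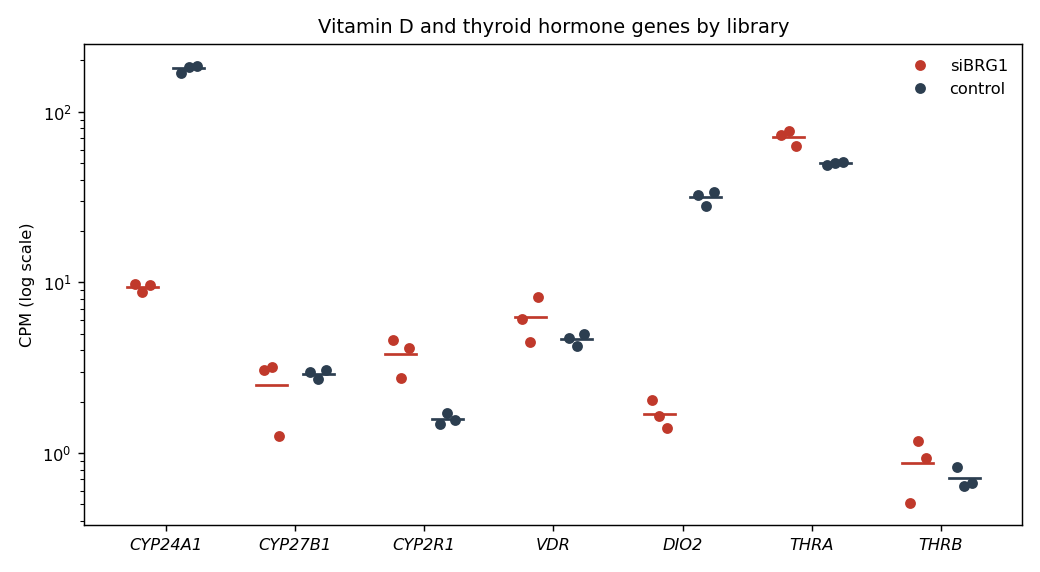
CPM of the 7 genes on a log scale, each point a library and each line the mean of 3 libraries, with siBRG1 left of control for every gene. CYP24A1 and DIO2 show siBRG1 libraries more than a decade below control (means 9.39 and 1.70 CPM in siBRG1, 180.3 and 31.6 CPM in control), while the points of CYP27B1, VDR and THRB overlap between groups.

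DIO2 (ENSG00000211448.11, chromosome 14, 80197527 to 80387757, minus strand), the enzyme that activates thyroid hormone, had 2.04, 1.64 and 1.41 CPM in siBRG1 and 32.6, 28.2 and 33.9 CPM in control. All siBRG1 libraries lay far below all control libraries. The difference came to -4.21 on the log2 scale (SE 0.141), 18.5-fold higher RNA in control. Only 28, 21 and 18 reads stood behind the siBRG1 values, with 95% counting intervals that together reach between 0.836 and 2.95 CPM, whereas control had 1587, 1109 and 1365 reads. DIO2-AS1, the antisense gene that shares 70 exon bases with DIO2, had 2 reads in the siBRG1 libraries together and 3 in the control libraries together.

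The other deiodinases were not detected. DIO1, which activates thyroxine in liver and kidney, and DIO3, which inactivates both hormones, had 0 reads in all 6 libraries, and so had TSHR, the thyrotropin receptor. With 3 counts as the limit, this allows up to 0.242 CPM in any siBRG1 library and up to 0.0746 CPM in any control library. DIO2 was therefore the only deiodinase with reads in these cells.

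THRA (ENSG00000126351.12, chromosome 17, 40058290 to 40093867, plus strand), the main thyroid hormone receptor gene by level here, had 73.4, 77.1 and 62.8 CPM in siBRG1 and 48.6, 50.3 and 50.5 CPM in control. The groups did not overlap, and the log2 fold change was 0.52 (SE 0.0599), a 1.43-fold higher mean in siBRG1. After trends with GC content and gene length had been removed, it was 0.38. The 3′ end of THRA shares 263 exon bases with NR1D1, a circadian nuclear receptor gene on the opposite strand. NR1D1 stood at 11.2 ± 1.20 CPM in siBRG1 and 9.42 ± 0.771 CPM in control (SD, n = 3 each), with overlapping libraries and a difference of 0.25 on the log2 scale (SE 0.114, adjusted p = 0.0472). That call was lost under 10 of 15 other settings, with a log2 fold change of 0.01 (adjusted p = 0.922) once GC and length trends were removed. Reads opposite to THRA were 3.12% of its stranded reads in siBRG1 and 4.4% in control.

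THRB (ENSG00000151090.18, chromosome 3, 24117153 to 24495756, minus strand), the second receptor gene, was close to the limit of detection, with 0.509, 1.17 and 0.940 CPM in siBRG1 and 0.823, 0.637 and 0.671 CPM in control. The siBRG1 libraries fell on both sides of the control libraries. They held 7, 15 and 12 reads, and control held 40, 25 and 27. The log2 fold change was 0.28 (SE 0.383) and ran between 0.01 and 0.57 as single libraries were left out, so a difference was not detectable at this depth.

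The authors' deposited table gives log2 fold changes of -4.29 for CYP24A1, -0.24 for CYP27B1, 1.25 for CYP2R1, 0.41 for VDR, -4.24 for DIO2, 0.49 for THRA and 0.26 for THRB. Each has the sign found here for that gene. That table compares the same groups of this series, so the shared signs are no independent check.

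To compare genes with one another, CPM was divided by the exon length of the gene in kilobases. In siBRG1 cells, the order by mean CPM per kb was THRA (10.2), CYP24A1 (2.36), VDR (1.11), CYP2R1 (0.847), CYP27B1 (0.729), DIO2 (0.227) and THRB (0.0798). In control cells it was CYP24A1 (45.4), THRA (7.16), DIO2 (4.22), CYP27B1 (0.849), VDR (0.818), CYP2R1 (0.351) and THRB (0.0647). Neighbours in this order whose libraries overlapped were VDR with CYP2R1 and CYP2R1 with CYP27B1 in siBRG1, and CYP27B1 with VDR in control. The breakdown enzyme thus led the order in control cells and came after THRA in siBRG1 cells, and DIO2 stood next to THRA in control and just above THRB in siBRG1.

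Ratios within a library do not depend on library size. CYP24A1 exceeded CYP27B1, the enzyme that makes its substrate, by 2.76, 2.37 and 6.66 times per kb in the siBRG1 libraries and by 49.1, 59.2 and 52.9 times in the control libraries. The highest siBRG1 ratio belongs to replicate 3, in which CYP27B1 was low. CYP24A1 relative to its regulator VDR was 2.25 ± 0.567 per kb in siBRG1 and 55.8 ± 5.75 in control (SD, n = 3 each). DIO2 relative to THRA was 0.0221 ± 0.00318 in siBRG1 and 0.590 ± 0.0591 in control. Counts per gene pool all transcripts of a gene, and at that level the ratio of THRA to THRB showed no such gap. THRA exceeded THRB by 227, 103 and 105 times in siBRG1 and by 93.1, 124.5 and 118.7 times in control, and these ranges overlap. The siBRG1 ratios rest on 7, 15 and 12 THRB reads.

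Among all 15830 genes ordered by log2 fold change with the lowest first, CYP24A1 was 214th and DIO2 220th. Most places above them were held by genes with fewer reads and by histone or non-coding genes. Among the 10683 protein-coding genes other than histones with a mean of at least 100 counts, CYP24A1 was 4th and DIO2 5th, a position that follows from how they were chosen.

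The genes whose profile over the 6 libraries came closest to that of CYP24A1, among 4843 genes of like level, were HIST1H2AC, HIST1H2BJ and ANKRD1, at distances of 0.42, 0.95 and 1.73 on the log2 scale. HIST1H2AC and HIST1H2BJ encode replication histones, which belong to the class of RNA that differed between the libraries as a whole and have near-identical copies that can share reads. ANKRD1, a cardiac and YAP-responsive ankyrin repeat gene, had 9.75, 8.77 and 11.7 CPM in siBRG1 and 66.2, 73.4 and 78.2 CPM in control (log2 fold change -2.85, SE 0.0874). For DIO2 the closest of 2693 genes were MYPN, HIST1H3E and SNORD17, at 0.39, 0.56 and 0.59. MYPN, which encodes a sarcomere protein, had 1.89, 1.96 and 2.04 CPM in siBRG1 and 34.0, 34.5 and 36.6 CPM in control (log2 fold change -4.16, SE 0.120). HIST1H3E is again a histone gene and SNORD17 a small nucleolar RNA. The distance takes in the gap between groups on which CYP24A1 and DIO2 were chosen. That the closest genes were also lower in siBRG1 follows from this measure and is no separate result.

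The supply of vitamin D was described with 20 further genes, of which 9 could be tested. Of these 9, 6 rose, 2 fell and 1 (FDX1) did not pass the threshold, a called share of 88.9% beside 72.6% of all genes, with a median log2 fold change of 0.77 beside -0.01. The strongest rise was that of CYP27A1, a mitochondrial sterol hydroxylase that can also carry out the first hydroxylation of vitamin D. It had 5.24, 6.11 and 4.62 CPM in siBRG1 and 0.761, 0.484 and 0.596 CPM in control, a log2 fold change of 3.09 (SE 0.244) with an adjusted p of 3.81e-12. DHCR7, which turns the vitamin D precursor into cholesterol, rose to 484 ± 13.7 CPM in siBRG1, against 92.6 ± 3.31 CPM in control (SD, n = 3 each; log2 fold change 2.39, adjusted p = 4.6e-28). The redox partners of P450 enzymes were also higher: FDXR, which feeds the mitochondrial ones, stood at 27.2 CPM in siBRG1 and 13.0 CPM in control (1.06), and POR, which feeds the microsomal ones, at 61.7 CPM in siBRG1 and 36.3 CPM in control (0.77). FDX1, the ferredoxin between FDXR and the enzymes, had 17.6 CPM in siBRG1 and 20.02 CPM in control (-0.19, adjusted p = 0.0568), and passed the threshold with lower values under 5 of 15 other settings. FGFR1, a receptor for the phosphate hormone FGF23, rose (0.34), and PDIA3 (-0.55), a candidate membrane receptor for the hormone, and DAB2 (-0.21), an adaptor of endocytosis, fell. The transport protein gene GC, the calcium-sensing receptor CASR, FGF23 and its co-receptor KL had no reads in any library.

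Of 25 genes known as targets of active vitamin D in various cell types, 16 were tested, and 9 rose, 5 fell and 2 did not pass, with a median log2 fold change of 0.27. They did not share a direction, and whether they respond to vitamin D in 12Z cells was not tested. CDKN1A, a cell cycle inhibitor, had 82.8, 86.7 and 86.0 CPM in siBRG1 and 31.0, 32.7 and 27.9 CPM in control (1.48, SE 0.0589, adjusted p = 7.11e-19). CD14, an innate immune co-receptor, rose by 1.19 on the log2 scale, LRP5, a Wnt co-receptor, by 0.93 and CLMN by 0.85. The sparsely read FBP1 had the larger log2 fold change of 3.31 (adjusted p = 2.73e-09). It rested on 95 reads in the siBRG1 libraries together and 31 in the control libraries together. In the other direction, IGFBP3, a carrier of insulin-like growth factors, had 13.8, 14.0 and 12.5 CPM in siBRG1 and 45.6, 47.1 and 48.6 CPM in control (-1.81, SE 0.0747, adjusted p = 1.74e-18). DUSP10 (-0.70), a phosphatase of stress kinases, TXNRD1 (-0.68), a thioredoxin reductase, and GADD45A (-0.64), a DNA damage gene, were the next largest falls among genes with enough reads to be named. The intestinal calcium genes TRPV6, TRPV5 and S100G had no reads in any library. The called share of the list was 87.5%, beside 72.6% of all genes.

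**Figure D2:**
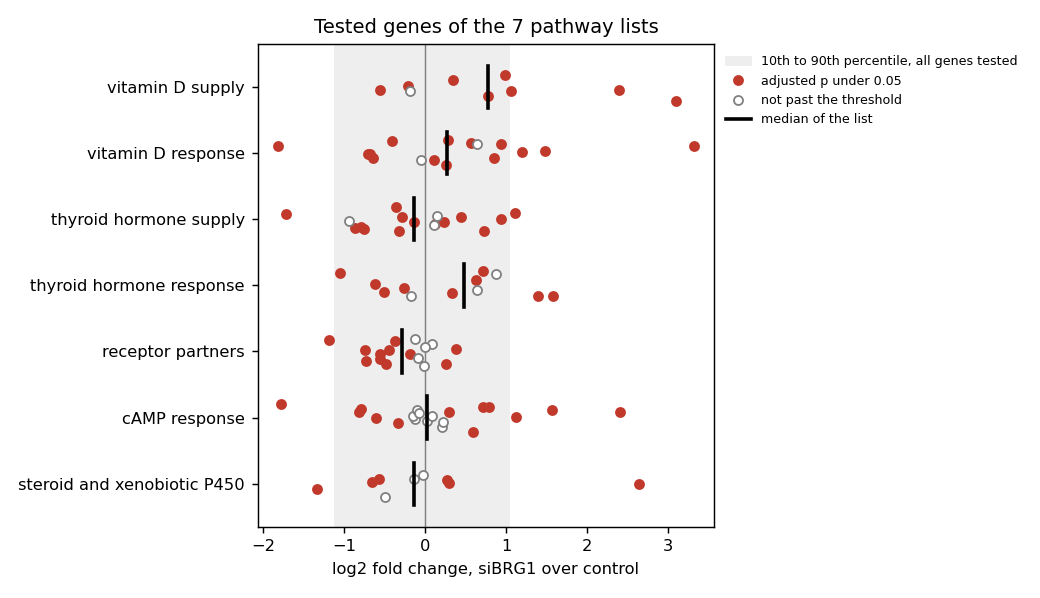
Log2 fold changes, siBRG1 over control, of every tested gene of the 7 pathway lists, filled where the adjusted p was under 0.05, with the median of each list as a bar and the span between the 10th and 90th percentiles of all tested genes shaded (-1.11 to 1.03). The lists hold genes on both sides of 0, and their medians lie between -0.28 and 0.77.

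Thyroid hormone supply was covered by 24 genes for transport, deiodination and selenoprotein synthesis, of which 17 were tested. In siBRG1 cells 6 rose, 8 fell and 3 did not pass, and the median log2 fold change was -0.14. The called share was 82.4%, beside 72.6% of all genes. Transport genes were among the larger falls. SLC7A5, an amino acid transporter that also carries thyroid hormone, had 64.4, 54.6 and 67.3 CPM in siBRG1 and 190, 216 and 205 CPM in control (-1.71, SE 0.0587, adjusted p = 2.63e-19). Its heavy chain SLC3A2 fell by 0.75 and the organic anion transporter SLCO4A1 by 0.86 on the log2 scale. SLC7A8, another amino acid transporter for thyroid hormone, went the other way, with 1.76 CPM in siBRG1 and 0.922 CPM in control (0.93, SE 0.295, adjusted p = 0.00602). Both deubiquitinases known to act on the DIO2 protein rose, USP20 by 1.11 (adjusted p = 3.66e-10) and USP33 by 0.44 (adjusted p = 8.86e-11). Of the genes of the list that serve the addition of ubiquitin, UBE2G2 (-0.36), UBE2J1 (-0.32) and MARCH6 (-0.28) fell, and WSB1 (0.12) rose. PSTK (0.73) and SEPHS2 (0.23), which serve the synthesis of selenocysteine, rose as well. TTR and SERPINA7, the carriers of the hormone in blood, had no reads.

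Among 20 genes known to respond to thyroid hormone, 12 were tested, and 5 rose, 4 fell and 3 did not pass. The called share was 75%, beside 72.6% of all genes, and the median log2 fold change 0.48. DBP, a circadian transcription factor, rose by 1.58 (10.8 ± 0.937 CPM in siBRG1 and 3.59 ± 0.649 CPM in control, SD, n = 3 each). BCL3 (0.71), FURIN (0.63), KLF9 (0.33), a classical direct target, and RCAN2 (1.39), which is sparsely read, were the other rises. CPT1A (-0.62), for fatty acid oxidation, and ME1 (-0.51), malic enzyme, were lower. The falls of ATP2A2, a calcium pump (-0.26), and of UCP3, at under 1 CPM in both groups (-1.05), were less secure: ATP2A2 lost its call when GC and length trends were removed (-0.06, adjusted p = 0.0968), and UCP3 lost it under 5 of the 14 other settings that gave it a value.

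The receptors act with partners and coregulators, and of 17 such genes 16 were tested: 2 rose, 9 fell and 5 did not pass. The called share was 68.8%, beside 72.6% of all genes, and the median log2 fold change -0.28. RXRA, a DNA-binding partner of VDR and the thyroid receptors, had 23.4, 24.7 and 22.8 CPM in siBRG1 and 24.0, 27.4 and 25.6 CPM in control, which overlapped (-0.12, SE 0.0767, adjusted p = 0.167). RXRB had 20.8, 25.1 and 23.9 CPM in siBRG1 and 17.5, 17.7 and 18.6 CPM in control (0.38, SE 0.0833, adjusted p = 0.000225), and lost its call once GC and length trends were removed (0.16, adjusted p = 0.0747). Of the corepressor complex that holds unliganded receptors silent, TBL1XR1 fell by 1.19 on the log2 scale and HDAC3 rose by 0.26. BAZ1B (-0.73), a subunit of a remodelling complex described with VDR, and MED1 (-0.56), the Mediator subunit that contacts nuclear receptors, fell.

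DIO2 is known as a gene induced by cyclic AMP, through an element close to its start. The RefSeq start at position 80212178 of chromosome 14 (GRCh38.p14, minus strand) is shared by 1 of the 11 DIO2 transcripts of GENCODE 29. The 250 bases before it, chr14:80212179-80212428, which no DIO2 exon of GENCODE 29 reaches, contain the palindromic cyclic AMP response element TGACGTCA 96 to 89 bases before the start. The window is shown because no other window of the 7 genes held this element, and capitals mark it.
DIO2 promoter: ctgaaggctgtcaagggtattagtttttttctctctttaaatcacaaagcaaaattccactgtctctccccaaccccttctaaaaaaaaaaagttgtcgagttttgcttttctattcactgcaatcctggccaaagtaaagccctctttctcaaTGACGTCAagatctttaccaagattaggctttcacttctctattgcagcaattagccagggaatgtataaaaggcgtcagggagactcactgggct

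Windows of 250 bases from RefSeq were found for 4 of the 7 genes (CYP2R1, DIO2, THRA and THRB), 8 windows in all. Both strands were searched for TGACGTCA, the AP-1 element TGANTCA, the nuclear receptor half-site AGGTCA and its direct repeats spaced by 3 and by 4 bases, and the only match was the one shown. A half-site lies within each of the direct repeats, so these searches overlap. TGACGTCA stood in 1.65% of 35116 windows of all genes, TGANTCA in 6.57% and AGGTCA in 12.1%, while the direct repeats stood in 0.0057% and 0.0142%. Of 361 tested genes with TGACGTCA in a window, 37.1% were called higher and 39.1% lower, with a median log2 fold change of 0.01. Of 10275 tested genes without it, 39.6% were called higher and 35.5% lower, with a median of 0.04.

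Of 24 genes of cyclic AMP signalling and its targets, 21 were tested, and 7 rose, 6 fell and 8 did not pass. The median log2 fold change was 0.02 and the called share 61.9%, beside 72.6% of all genes. Both phosphodiesterases of the list, which break cyclic AMP down, rose: PDE4B had 18.4, 16.8 and 16.1 CPM in siBRG1 and 3.44, 3.56 and 2.68 CPM in control (2.40, SE 0.128, adjusted p = 5.54e-16), and PDE4D rose by 1.12. The transcription factor CREB1, which binds the element, fell by 0.61 and its relative ATF1 rose by 0.59, as did the coactivator CRTC1 by 0.71. The protein kinase A subunits PRKAR2A and PRKACB fell by 0.79 and 0.34, and PRKACA did not pass (-0.07, adjusted p = 0.17). Among the target genes of the list, PER1 (0.29) and the sparsely read NR4A2 (1.57) and NR4A3 (0.79) rose. PTHLH, also sparsely read, fell (-1.78). PPP1R15A, a stress-induced phosphatase subunit, fell by 0.81 and is 1 of 5 genes, among the 22 of the list with a window, that hold TGACGTCA. Of the others, CREM did not pass (-0.15, adjusted p = 0.223), PRKAR1A had a small fall (-0.13, adjusted p = 0.00378) that was lost under 3 of 15 other settings, and CGA and SST had too few reads to be tested.

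Other cytochromes P450 for steroids and foreign compounds showed no shared direction. Of 26 genes, 9 were tested, with 3 rises, 3 falls and 3 that did not pass, and a median of -0.14. The called share was 66.7%, beside 72.6% of all genes. CYP51A1, an enzyme of cholesterol synthesis, had 18.6, 17.7 and 17.2 CPM in siBRG1 and 2.65, 3.06 and 2.86 CPM in control (2.64, SE 0.122, adjusted p = 2.23e-17). CYP2U1 (0.27) rose slightly, and the small rise of CYP2S1 (0.30) was lost without siBRG1 replicate 2 (0.19, adjusted p = 0.0861) and when GC and length trends were removed (0.03, adjusted p = 0.755). CYP1B1 (-0.66), which hydroxylates estrogens, CYP20A1 (-0.57) and the sparsely read CYP27C1 (-1.33) fell.

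Neighbouring genes were examined within 500 kb of the start of each of the 7 genes. Of 188 annotated neighbours 70 were tested, and 31 rose, 24 fell and 15 did not pass. The called share was 78.6%, beside 72.6% of all genes. The nearest tested neighbour of CYP24A1, the chaperone subunit gene PFDN4, 33.9 kb away between starts, rose to 85.9 ± 4.21 CPM in siBRG1, against 61.3 ± 1.46 CPM in control (SD, n = 3 each; 0.49, adjusted p = 1.08e-09). The only other tested neighbour, DOK5, fell by 1.05. None of the 3 annotated neighbours of DIO2 and none of the 9 of THRB had enough reads to be tested. Around CYP27B1, 14 of 27 tested neighbours rose and 6 fell, with CDK4, a cell cycle kinase, at 0.50 on one side and EEF1AKMT3 at -0.10 (adjusted p = 0.431) on the other. Next to CYP2R1, the proteasome gene PSMA1 fell by 0.94 and the coatomer gene COPB1 rose by 0.33. Around VDR 6 of 14 rose and 6 fell, with TMEM106C at 1.21, and HDAC7 at -0.12 (adjusted p = 0.0346), a call that was lost under 6 of 15 other settings and also with unstranded counts, where the sign changed. Around THRA 9 of 25 rose and 10 fell, with PSMD3 at -0.37, and MED24, which overlaps the start of THRA on the opposite strand, at 0.00 (adjusted p = 0.942).

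**Figure D3:**
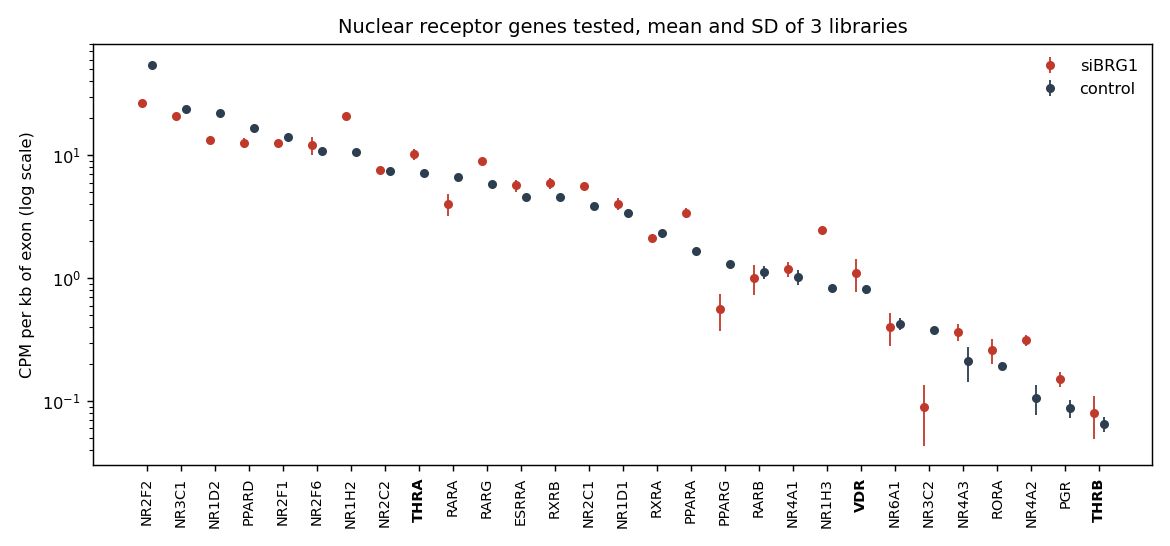
Level per kb of exon, mean and SD of 3 libraries on a log scale, of the 29 nuclear receptor genes that were tested, ordered by the control mean, with siBRG1 left of control and the 3 receptors of the gene set in bold. THRA lies in the upper part of the order (10.2 CPM per kb in siBRG1, 7.16 in control), VDR near 1 CPM per kb and THRB at the bottom.

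Among the 48 nuclear receptor genes, ranked by CPM per kb, THRA was 8th in siBRG1 and 9th in control, VDR 20th in siBRG1 and 22nd in control, and THRB 30th in both groups. The 3 receptors thus held nearly the same places in both groups. The highest was NR2F2, the orphan receptor COUP-TFII, at 26.4 ± 1.42 CPM per kb in siBRG1 and 54.0 ± 2.25 CPM per kb in control (SD, n = 3 each). It fell by 1.03 on the log2 scale (adjusted p = 2.05e-18). Of the 24 tested nuclear receptors other than VDR, THRA, THRB, RXRA and RXRB, 11 rose, 8 fell and 5 did not pass. Their median log2 fold change was 0.19 and their called share 79.2%, beside 72.6% of all genes.

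Markers of cell types were read beside these results. The summed CPM of 6 epithelial markers was 3472 to 3729 in siBRG1 and 3931 to 4016 in control, with 3 rises and 2 falls, and KRT8 and KRT18 were the most abundant. EPCAM and CDH1, defining genes of epithelium, were low in both groups: EPCAM had 1.61 CPM in siBRG1 and 0.251 CPM in control, and CDH1 5.87 CPM in siBRG1 and 3.05 CPM in control, and both rose. The keratins KRT7 and KRT19 fell, KRT7 to 36.9 CPM in siBRG1, against 195.7 CPM in control (-2.40, adjusted p = 9.32e-24), and KRT19 to 608 CPM in siBRG1, against 882 CPM in control (-0.54, adjusted p = 1.75e-13). The sum of 6 fibroblast markers was 4732 to 5055 CPM in siBRG1 and 2616 to 2800 CPM in control, with 5 rises, 1 fall and a median log2 fold change of 1.62. The part of that shift in the values of CYP24A1 and DIO2 was not tested. Immune markers summed to 0.627 to 1.24 CPM in siBRG1 and 0.637 to 1.04 CPM in control, with CD3E and CD163 at 0 reads, and endothelial markers to 15.2 to 21.4 CPM in siBRG1 and 17.4 to 20.1 CPM in control. Markers of thyroid follicular cells summed to 6.26 to 7.29 CPM in siBRG1 and 4.402 to 5.17 CPM in control, mostly PAX8, and NKX2-1 had no reads.

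**Figure D4:**
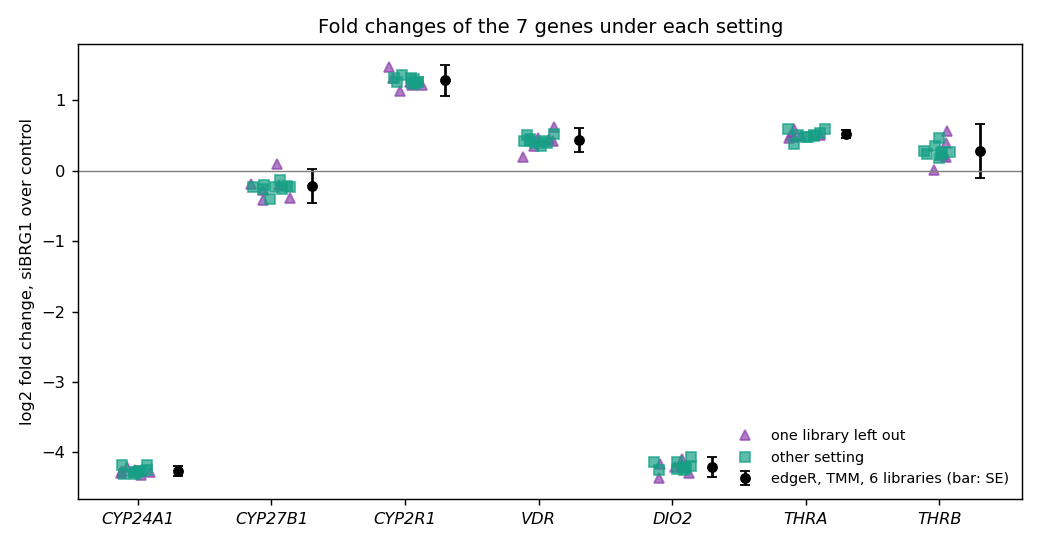
Log2 fold changes, siBRG1 over control, of the 7 genes as reported (black, with SE) and under the other settings tried, with triangles for fits that left out 1 library. CYP24A1 and DIO2 stay between -4.37 and -4.06 under every setting, CYP2R1, VDR and THRA stay above 0, and CYP27B1 crosses 0.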

How the data were processed

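Per the labels' protocols, 500 ng of total RNA went into each directional mRNA library, with a single kit named for both groups. The authors deposited, for each of 6 libraries, raw counts per gene in 3 columns (unstranded and each strand), and a table of their own comparison with log2 fold changes and standard errors. Per the submitters' processing notes, the build was GRCh38.p12 and the tools were STAR, DESeq2, FastQC, cutadapt and Trim Galore, with no versions. Which annotation release was counted was not given in the sources used here. GENCODE 29 holds 56888 of the 58336 identifiers with their version and 58216 without. The sense column was used. Left out were the entries without a gene: unmapped reads (1.78 to 1.92% in siBRG1, 1.57 to 1.7% in control), reads in several places (18.5 to 21.5% in siBRG1, 9.57 to 10% in control), reads in no gene (3.85 to 4.2% in siBRG1, 12.8 to 13.6% in control) and ambiguous reads (3.08 to 3.14% in siBRG1, 4.13 to 4.18% in control).

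Groups were compared with edgeR 4.0.16 (R 4.3.3; TMM, filterByExpr, robust quasi-likelihood fit on group), two-sided, with Benjamini-Hochberg adjustment over all 15830 genes tested; an adjusted p under 0.05 is a call, "rose" or "fell". CPM divides each count by the TMM-scaled library total and is set to a common total. The SE is the log2 fold change over the square root of F. The procedure was tested on simulated data. All 6 libraries were kept, since counts within a group differed beyond sampling noise, with chi-square over degrees of freedom at 2.64 to 4.55. Counting intervals are exact Poisson at 95%; they and floors of 3 counts cover counting error only. Likeness is the Euclidean distance between log2(CPM + 0.5) profiles centred on each gene's mean, among genes within 1 log2 of its level. Sequences come from RefSeq (GRCh38.p14 windows) and GENCODE 29 (APPRIS principal, then longest, coding sequence).

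The 7 genes and the lists were chosen with earlier results of these data known. Named genes are the 7, SMARCA4, up to 4 calls per direction and list with the largest change and a mean of at least 50 counts, fixed genes (RXRA, RXRB, CYP27A1, DIO1, DIO3, NR1D1 and TSHR among them), nearest tested neighbours and the 3 most alike profiles. Others, among them DOK5, METTL1, COPB1, NR2F2, FDX1, RCAN2, UCP3, CYP27C1, PRKAR1A, CREM, SLC7A8, EPCAM, CDH1, KRT7, KRT19 and genes without reads, were named after their values were seen. So were FBP1, PRKACA, PER1, NR4A2, NR4A3, PTHLH, UBE2G2, UBE2J1, MARCH6 and WSB1. Some genes that the rule names are not reported here. Alternatives were DESeq2 1.42.0 and its size factors, no filter, at least 50 counts in 3 libraries, unstranded counts, removal of GC and length trends, protein-coding genes only, a replicate block, each library left out and, chosen after seeing the data, library totals without TMM.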

Additional observations from a re-analysis of the deposited data

How the results depend on the processing

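Under the 15 alternatives, the counts of calls over all genes, for each list and for the neighbours stayed within 1.5 times of those reported, and all-gene calls lay between 9698 with protein-coding genes only and 12541 with no filter, of 30426 genes tested. CYP24A1 lay at -4.19 both with unstranded counts and with library totals without TMM, and between -4.32 and -4.21 with 1 library left out; DIO2 lay between -4.37 and -4.09 with 1 library left out. With totals without TMM, chosen after seeing the data, the median of all genes was 0.07 and 55.4% of calls were higher; with no filter 44.2% were higher. Signs turned for CYP27B1 without siBRG1 replicate 3 (0.10; -0.418 to 0.10 with 1 library left out), EEF1AKMT3 without siBRG1 replicate 2 (0.017; -0.176 to 0.017), HDAC7 with unstranded counts (0.013), and MED24 with at least 50 counts (0.01), unstranded counts (0.052), totals without TMM (0.072) and without siBRG1 replicate 1, siBRG1 replicate 2 or control replicate 3 (up to 0.022; -0.054 to 0.022). These causes were not tested. THRB has no value with at least 50 counts in 3 libraries.

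Replicate numbers do not pair the libraries: deviations of same-numbered libraries correlated across genes at -0.016, 0.03 and 0.012. With the replicate block, 5528 genes were called higher and 5666 lower, 11194 in all. Depth limits THRB, CYP27B1 and DIO2 in siBRG1, where 7 to 42 reads stand behind a value. It also limits CYP2R1, with 35 to 63 reads there. Group and batch cannot be told apart under any setting.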
